A study of Rattus norvegicus with 6 samples.

Results

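The miRNAs described here are the arms of miR-15b, miR-16, miR-195 and miR-497, taken as every row of the deposited rat miRNA table whose name begins with one of these 4 names. That gave 8 rows of 764, namely the 5p and the 3p arm of each precursor. Small RNA was sequenced from testicle of male Sprague Dawley rats, 3 libraries from HO-1 knockout rats and 3 from wild type (WT) rats. In all animals the left testicle had been rotated by 720° for 2 h, and tissue was taken 3 days after it was released. HO-1 is heme oxygenase 1, the inducible enzyme that degrades heme. Both genotypes carried the same injury, so genotype was the only contrast that the labels give, and uninjured tissue was not analysed here. The sources used here give neither the way the knockout was made nor whether each library stands for 1 animal. HO-1 messenger RNA was not measured by this assay. Values are reads per 1000000 reads assigned to miRNAs (RPM).

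A miRNA precursor is a hairpin from which a short duplex is cut. One strand, the guide, is usually kept in the Argonaute protein and pairs with messenger RNAs through its seed, bases 2 to 8 from its 5′ end, while the passenger strand from the other arm is mostly degraded. The miR-15/16 family shares 1 seed and is known in mammals for restraining the cell cycle and survival, through targets such as cyclins and BCL2. miR-16 is abundant in many tissues and in red blood cells, and miR-195 and miR-497 are known from muscle and from withdrawal of heart muscle cells from the cell cycle after birth in mice.

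The guide arms are shown because the shared seed is what makes these miRNAs a family. The sequences are RefSeq's, on the rat build GRCr8, 5′ to 3′, with the seed in capitals.
miR-16-5p: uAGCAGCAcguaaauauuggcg
miR-15b-5p: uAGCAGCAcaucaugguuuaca
miR-195-5p: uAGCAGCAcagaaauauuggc
miR-497-5p: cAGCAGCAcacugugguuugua
miR-322-5p: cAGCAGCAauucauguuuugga
These are the 5 of 724 mature sequences in the RefSeq miRNA table that carried this seed (0.691%). The miR-15a arms, which are rows of the deposited table, were not matched in the RefSeq table and are not in that count. miR-16-5p and miR-195-5p were the closest pair, with the same base at 19 of 21 positions counted from the 5′ end without gaps. miR-16-5p and miR-15b-5p matched at 14 of 22 positions, and miR-16-5p and miR-497-5p at 11 of 22. The sources used here do not give the rule for reads with mismatches, so whether reads of miR-16-5p and miR-195-5p were exchanged was not tested.

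The precursors form 2 pairs of neighbours. In the RefSeq gene table, Mir15b and Mir16 lie next to each other on chromosome 2, inside the span of Smc4, which encodes a condensin subunit. Mir497 and Mir195 lie next to each other on chromosome 10. The mature miR-16-5p sequence lies at chr2:155555343-155555364 and miR-15b-5p at chr2:155555197-155555218, both on the plus strand of GRCr8. miR-195-5p lies at chr10:55450509-55450529 and miR-497-5p at chr10:55450172-55450193, also on the plus strand. In human and mouse an identical miR-16 guide is made from a further locus beside miR-15a. Reads of 1 mature sequence made from several loci cannot be told apart in a table of this kind.

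To show where the arms sit, the Mir16 and Mir195 hairpins are given with both mature arms in capitals.
Mir16 hairpin: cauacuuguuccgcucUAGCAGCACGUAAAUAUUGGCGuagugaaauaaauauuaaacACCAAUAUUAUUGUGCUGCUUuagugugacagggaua
Mir195 hairpin: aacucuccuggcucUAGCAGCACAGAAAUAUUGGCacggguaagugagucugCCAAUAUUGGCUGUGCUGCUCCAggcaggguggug
They lie at chr2:155555327-155555421 and chr10:55450495-55450581 on the plus strand. The 3p arms do not share a seed. With the seed in capitals they read as follows.
miR-16-3p: aCCAAUAUuauugugcugcuu
miR-15b-3p: cGAAUCAUuauuugcugcucua
miR-195-3p: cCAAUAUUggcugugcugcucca
miR-497-3p: cCAAACCAcacugugguguuaga
The letters UGCUGCU, which pair with the family seed, were found on the strand given in miR-16-3p, miR-15b-3p and miR-195-3p and not in miR-497-3p. They occurred in 5 of 724 mature sequences (0.691%).

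Library totals, recovered from the size of 1 read, were 8300536 to 9809055 reads in the knockout and 9128924 to 10042673 reads in the WT. The labelled tissue was not borne out by its defining markers. miR-122, the hepatocyte miRNA, held 40.4% to 46.5% of the reads in knockout libraries and 32.8% to 36.7% in WT libraries. The germ cell and gonad list of 28 rows, 12 of them at 0 in every library, summed to 29.0 to 33.8 RPM in the knockout and 39.99 to 56.1 RPM in the WT. The values below are therefore those of libraries labelled testicle.

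miR-16-5p (rno-miR-16-5p in the table) was the most abundant arm in both genotypes and the only one of the 8 rows that passed the test. It stood at 446.6, 564.78 and 601.37 RPM in knockout libraries 1 to 3, against 908.22, 933.95 and 875.45 RPM in WT libraries 1 to 3. Every knockout library lay below every WT library, with knockout library 1 the lowest. The mean was 538 ± 81 RPM in the knockout and 906 ± 29 RPM in the WT (SD, n = 3 each), 40.7% lower in the knockout. The log2 change, on the scale of log2(RPM + 1) here and below, was -0.76 (SE 0.13, limma with Benjamini-Hochberg adjusted p = 0.017 over the 570 rows with a value above 0 in some library). These values rest on 14654 reads over the knockout libraries and 25944 over the WT libraries. The call was lost without knockout library 3 (limma adjusted p = 0.062) or without WT library 2 (limma adjusted p = 0.060).

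Of the 8 rows, 1 was called lower and 0 higher, and 4 had an unadjusted p under 0.05, among them miR-497-3p, with 5 reads in total. An unadjusted p under 0.05 was also found in 110 of the 570 tested rows. Among the 218 rows with a mean of at least 10 RPM it was found in 82. Of all tested rows 5.61% were called lower (32 lower and 4 higher, and 29 lower and 20 higher with TMM scaling). In the same fit 26 of the 218 rows with a mean of at least 10 RPM were called lower and 3 higher. Of the 8 member rows, 6 have such a mean. Relative to library totals most rows were lower in the knockout. Across the 218 rows with a mean of at least 10 RPM the median log2 change was -0.29, and it was -0.07 with TMM scaling, which re-centres the libraries on the bulk of the rows. The change of miR-16-5p was -0.54 with TMM scaling (limma adjusted p = 0.027, where 5.09% of tested rows were called lower and miR-16-5p was again the 1 member) and -0.57 when totals were taken without miR-122-5p (limma adjusted p = 0.021). On whole reads recovered from the table it was -0.55 in edgeR's quasi-likelihood test (adjusted p = 0.013). In the authors' deposited table miR-16-5p has a log2 fold change of -0.75 and a p-value of 0.00055.

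miR-15b-5p (rno-miR-15b-5p), the guide from the neighbouring precursor, was the least abundant guide arm. It stood at 42.17, 57.5 and 48.6 RPM in knockout libraries 1 to 3, against 71.1, 63.75 and 56.98 RPM in WT libraries 1 to 3. The groups overlapped, since knockout library 2 lay above WT library 3. Its log2 change was -0.37 (95% interval -0.77 to 0.03, limma adjusted p = 0.28), and -0.15 with TMM scaling (limma adjusted p = 0.54).

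miR-195-5p (rno-miR-195-5p) was second in abundance. It stood at 215.17, 272.2 and 252.47 RPM in knockout libraries 1 to 3, against 319.04, 297.84 and 295.86 RPM in WT libraries 1 to 3. The groups did not overlap, but the log2 change of -0.31 missed the threshold (95% interval -0.60 to -0.02, limma adjusted p = 0.21), and with TMM scaling it was -0.08 (limma adjusted p = 0.68).

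miR-497-5p (rno-miR-497-5p), its neighbour, stood at 70.36, 89.1 and 71.18 RPM in knockout libraries 1 to 3, against 123.67, 96.18 and 79.77 RPM in WT libraries 1 to 3. WT library 1 was the highest, and the groups overlapped between knockout library 2 and WT library 3. The log2 change was -0.36 (95% interval -0.81 to 0.09, limma adjusted p = 0.34), -0.14 with TMM scaling and -0.19 without WT library 1.

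Among the 3p arms, miR-195-3p (rno-miR-195-3p) was the most abundant and its means were nearly equal. It stood at 38.91, 34.36 and 43.71 RPM in knockout libraries 1 to 3, against 41.12, 36.15 and 39.67 RPM in WT libraries 1 to 3. The log2 change was -0.00 (95% interval -0.38 to 0.37, limma adjusted p = 0.99), and 0.21 with TMM scaling (limma adjusted p = 0.54). An interval of this width leaves room for a change in either direction.

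miR-15b-3p (rno-miR-15b-3p) stood at 13.37, 19.68 and 21.69 RPM in knockout libraries 1 to 3, against 26.89, 24.87 and 23.53 RPM in WT libraries 1 to 3. The knockout libraries were all below the WT libraries, with knockout library 1 the lowest, and the log2 change was -0.46 (limma adjusted p = 0.29), and -0.25 with TMM scaling. miR-16-3p (rno-miR-16-3p) was rare, with 2.65, 2.45 and 2.67 RPM in knockout libraries 1 to 3, against 4.28, 5.26 and 3.69 RPM in WT libraries 1 to 3. Its groups did not overlap either, and its log2 change of -0.58 rested on 22, 24 and 24 reads in knockout libraries 1 to 3 and 43, 48 and 35 in WT libraries 1 to 3 (limma adjusted p = 0.21), and with TMM scaling it was -0.41.

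miR-497-3p (rno-miR-497-3p) was at the limit of detection. It had 0 reads in every knockout library and 1, 3 and 1 reads in WT libraries 1 to 3. The 5 WT reads correspond to 0.175 RPM (exact 95% binomial interval 0.057 to 0.407), and 0 reads over the knockout libraries allow up to 0.111 RPM, taking 3 reads over the group as the limit. Both limits cover counting error only, since PCR copies were not removed.

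Counting all 8 rows, 5 had knockout libraries that all lay below the WT libraries, among them miR-497-3p, with 5 reads in total. The same was true of 21.6% of all tested rows, and of 41.7% of the rows with a mean of at least 10 RPM, among which 3 of 6 member rows showed it. The members' median log2 change was -0.36, beside -0.12 over all tested rows and -0.29 over rows of at least 10 RPM. With TMM scaling these medians were -0.19, -0.04 and -0.07.

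**Figure D1:**
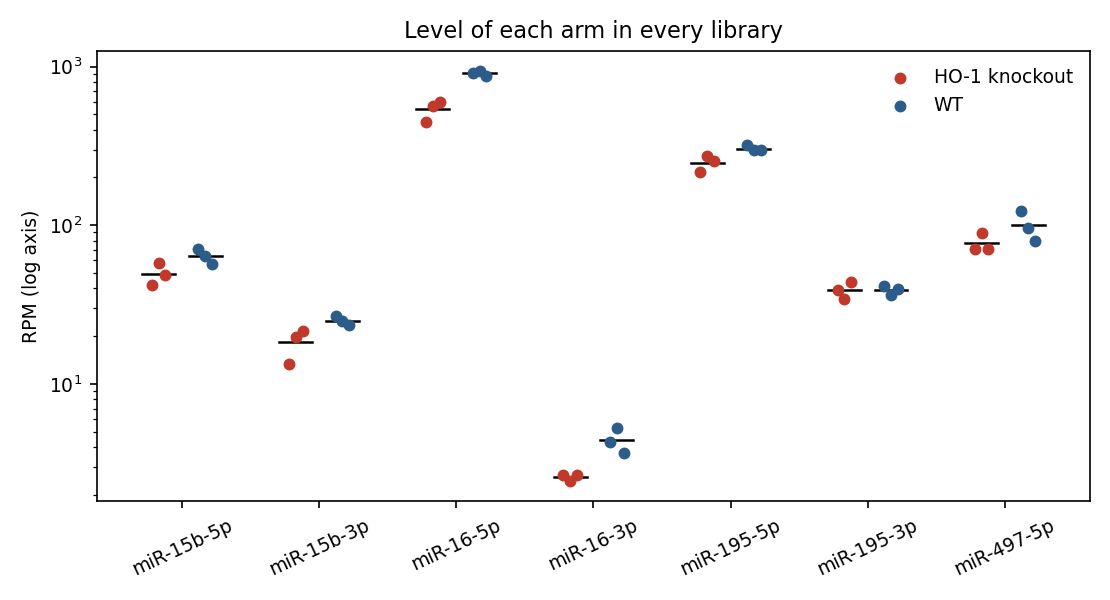
RPM on a log axis of 7 arms in each library, with HO-1 knockout libraries in red to the left of WT libraries in blue, points for libraries and a line at the mean of 3. miR-16-5p is the highest arm and lies at 446.6 to 601.37 RPM in the knockout and 875.45 to 933.95 RPM in the WT, while miR-195-3p has overlapping groups; miR-497-3p, at 0 in the knockout, is left out.

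The order of the 4 guide arms was the same in all 6 libraries, with miR-16-5p first, then miR-195-5p, miR-497-5p and miR-15b-5p. Neighbours in that order had ranges that did not overlap within either genotype. The guides are 21 or 22 bases long and each read covers 1 molecule, so no length correction was made, but ligation of adapters favours some sequences, and the order of levels between different miRNAs carries that bias. Their sum was 774, 984 and 974 RPM in knockout libraries 1 to 3, against 1422, 1392 and 1308 RPM in WT libraries 1 to 3. All knockout sums lay below all WT sums, and the mean was 33.7% lower in the knockout (exact two-sided permutation p = 0.1, the smallest that 3 against 3 libraries allow). With TMM scaling the sum was 23.1% lower (exact p = 0.1). Most of the sum was miR-16-5p in every library, and the other 3 guide arms were not called. Of the rows with a mean of at least 10 RPM, 41.7% also had all knockout libraries below all WT libraries.

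Shares of that sum do not depend on the library total, but within a closed sum one share is higher where another is lower. miR-16-5p made up 57.7%, 57.4% and 61.8% of the guide reads in knockout libraries 1 to 3, against 63.9%, 67.1% and 66.9% in WT libraries 1 to 3. miR-195-5p made up 27.8%, 27.7% and 25.9% in knockout libraries 1 to 3, against 22.4%, 21.4% and 22.6% in WT libraries 1 to 3. Neither share overlapped between genotypes, one being lower and the other higher in the knockout (exact two-sided permutation p = 0.1 for each, adjusted p = 0.2 over 4 shares). With 3 against 3 libraries this test cannot give a p below 0.1, so no share could pass the threshold. In RPM both miR-16-5p and miR-195-5p were lower in all knockout libraries. miR-497-5p held 8.49% ± 1.02 in the knockout and 7.24% ± 1.33 in the WT, and miR-15b-5p 5.43% ± 0.43 in the knockout and 4.65% ± 0.33 in the WT (SD, n = 3 each), with overlapping groups for both.

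Of the 6 ratios between guide arms, those of miR-16-5p to miR-195-5p and to miR-15b-5p did not overlap between genotypes. miR-16-5p was 2.08, 2.08 and 2.38 times miR-195-5p in knockout libraries 1 to 3, against 2.85, 3.14 and 2.96 times in WT libraries 1 to 3. That is a log2 difference of -0.45 (exact two-sided permutation p = 0.1, adjusted p = 0.3 over 6 ratios). miR-16-5p was 10.6, 9.82 and 12.4 times miR-15b-5p, its neighbour on the chromosome, in knockout libraries 1 to 3, against 12.8, 14.7 and 15.4 times in WT libraries 1 to 3. That difference was -0.39 on the log2 scale (exact p = 0.1, adjusted p = 0.3). The exact test of 3 libraries against 3 cannot give a p below 0.1, so none of the 6 ratios could pass the threshold in it.

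For the other pair of neighbours on the chromosome, miR-195-5p was 3.22 ± 0.28 times miR-497-5p in the knockout and 3.13 ± 0.57 times in the WT (SD, n = 3 each), a log2 difference of 0.05 (exact p = 1.0) that lay between -0.077 and 0.18 with 1 library left out. The groups overlapped, and WT libraries alone ran between 2.58 and 3.71 times. The differences in log2 ratio of miR-15b-5p to miR-195-5p and to miR-497-5p were -0.07 (exact p = 0.4) and -0.01 (exact p = 0.9). miR-16-5p to miR-497-5p differed by -0.40, with overlapping groups (exact p = 0.2).

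**Figure D2:**
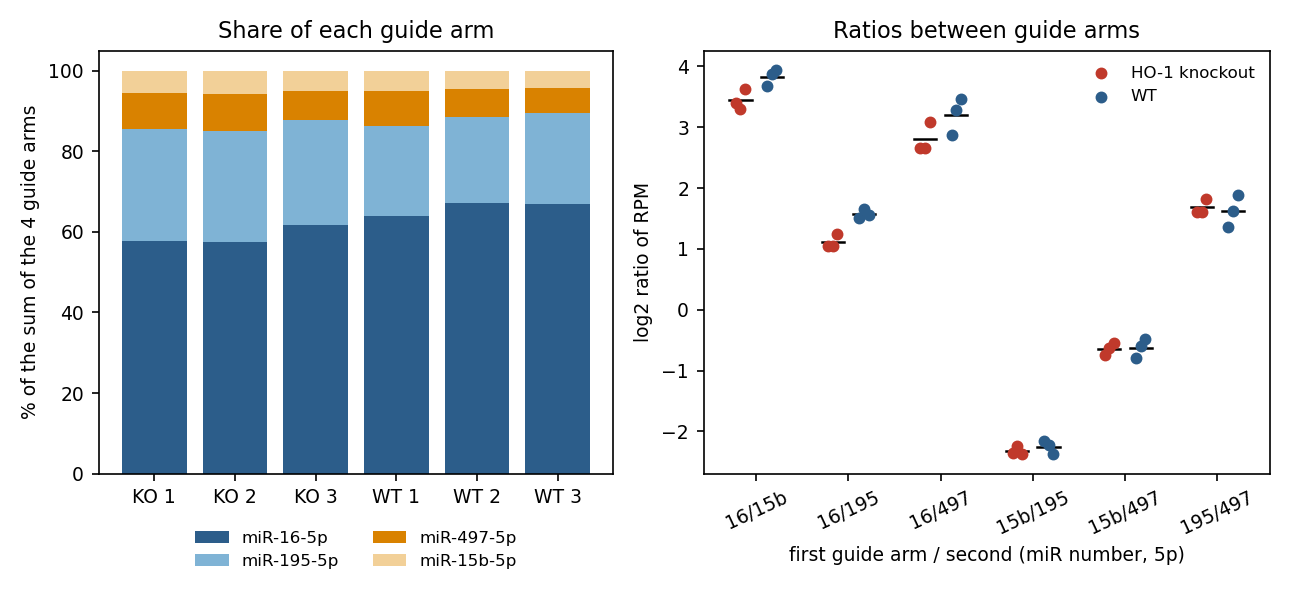
Left, the share of each guide arm in the sum of the 4 guide arms, in %, for each HO-1 knockout (KO) and WT library. Right, the log2 ratio of RPM for each pair of guide arms, with knockout libraries in red to the left of WT libraries in blue and a line at the mean of 3; miR-16-5p over miR-15b-5p and over miR-195-5p lie lower in all knockout libraries, and the ratio of miR-195-5p to miR-497-5p overlaps.

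Every precursor of the 4 gave more reads from its 5p arm than from its 3p arm, by very different factors. miR-16 was the most one-sided of the 3 with a measurable ratio, at 169, 231 and 225 reads of 5p for each read of 3p in knockout libraries 1 to 3, against 212, 178 and 237 in WT libraries 1 to 3. The knockout and WT ranges overlapped, and each ratio rests on 22 to 48 reads of the 3p arm. Whether reads of miR-16-5p also came from a further locus, as in human and mouse, was not tested. The miR-16 ratio may therefore not be that of 1 precursor. miR-195 had a 5p to 3p ratio of 5.53, 7.92 and 5.78 in knockout libraries 1 to 3, against 7.76, 8.24 and 7.46 in WT libraries 1 to 3. Knockout libraries 1 and 3 were lower than any WT library and knockout library 2 was not. miR-15b had the most even arms, with ratios of 3.15, 2.92 and 2.24 in knockout libraries 1 to 3, against 2.64, 2.56 and 2.42 in WT libraries 1 to 3. For miR-497 the 3p arm had 5 of 4979 reads over all libraries, 0.1% (exact 95% binomial interval 0.033% to 0.234%).

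None of the 3 measurable arm ratios was called as changed with genotype. Of the 94 precursors with a mean of at least 1 RPM in each arm, 30.9% were called in either direction. With 3 ratios, a count of 0 cannot be told from that share. The log2 difference, from log2((5p + 1)/(3p + 1)), was 0.09 for miR-15b (95% interval -0.28 to 0.47, limma adjusted p = 0.76), -0.18 for miR-16 (95% interval -0.55 to 0.19, limma adjusted p = 0.52) and -0.30 for miR-195 (95% interval -0.67 to 0.06, limma adjusted p = 0.25). At an unadjusted p under 0.05 the count was also 0. With a pseudocount of 5, which weighs on the rare miR-16-3p, the miR-16 ratio passed at -0.45 (limma adjusted p = 0.022), and with a pseudocount of 0.1 it was -0.03.

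**Figure D3:**
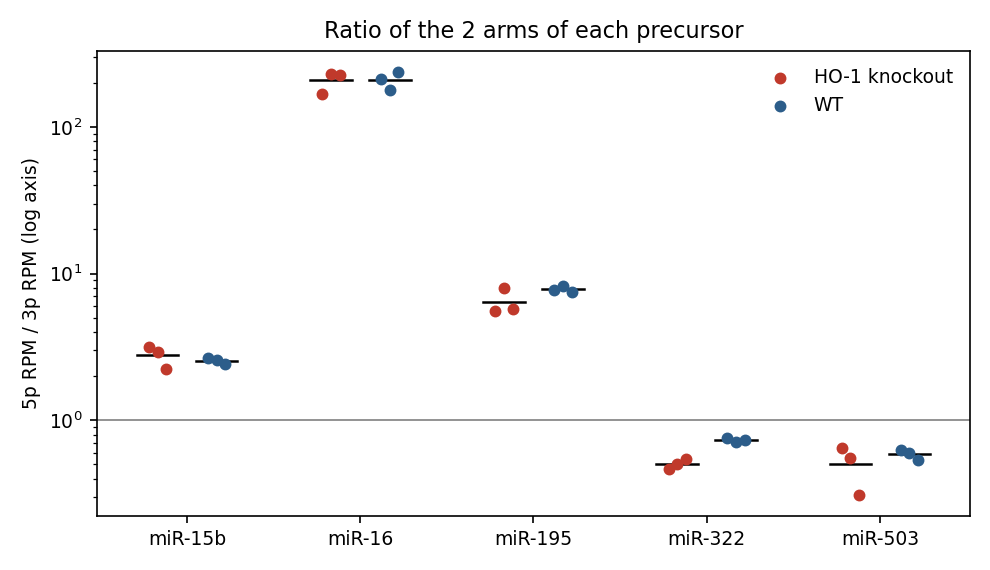
RPM of the 5p arm over RPM of the 3p arm on a log axis for 5 precursors, with HO-1 knockout libraries in red to the left of WT libraries in blue, a line at the mean of 3 and a grey line at equal arms. miR-16 lies between 169 and 237, and miR-322 lies below 1 in every library and lower in the knockout.

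The table holds 6 further rows of the family and of its near relative miR-503. Of these, 2 were called lower in the knockout and 0 higher. Called lower were 5.61% of all tested rows, and 26 of the 218 rows with a mean of at least 10 RPM. All 6 had a log2 change below 0, as had 69.5% of all tested rows and 75.2% of those of at least 10 RPM. In 4 of them every knockout library lay below every WT library, as in 21.6% of all tested rows. Such a gap was found in 41.7% of rows of at least 10 RPM, and in 3 of the 4 relatives with that mean. miR-15a-5p, the partner of miR-16 at its other locus in human and mouse, stood at 14.94, 23.04 and 20.69 RPM in knockout libraries 1 to 3, against 45.31, 43.6 and 32.5 RPM in WT libraries 1 to 3. The groups did not overlap, and the log2 change was -1.02 (SE 0.22, limma adjusted p = 0.038). The call remained in 1 of the 6 fits with a library left out, that without WT library 3, and in the other 5 the limma adjusted p was 0.070 to 0.13. miR-15a-3p had 3 reads over the knockout libraries and 6 over the WT libraries.

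miR-322-5p, which has the family seed and lies on the X chromosome beside miR-503, averaged 24.2 ± 2.9 RPM in the knockout and 45.0 ± 4.7 RPM in the WT (SD, n = 3 each; log2 change -0.87, limma adjusted p = 0.025). This call too remained only without WT library 3, with a limma adjusted p of 0.055 to 0.13 in the other 5 fits. Its 3p arm was the more abundant one, and the 5p to 3p ratio averaged 0.506 ± 0.038 in the knockout and 0.734 ± 0.026 in the WT (log2 difference -0.52, limma adjusted p = 0.026; lost without knockout library 1 and without WT library 1 or 3, at 0.067 to 0.13, and with no minimum on arm pairs, at 0.055). miR-503-5p, which does not carry the family seed, averaged 5.11 ± 1.5 RPM in the knockout and 9.08 ± 1.7 RPM in the WT, and its log2 change of -0.74 did not pass (limma adjusted p = 0.19).

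**Figure D4:**
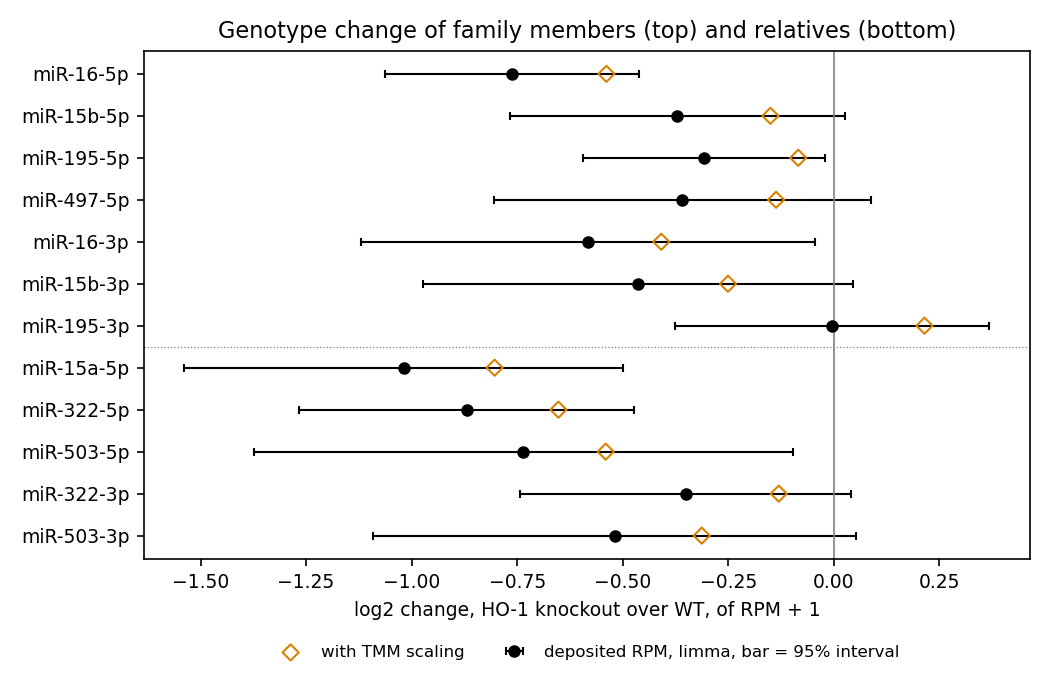
Log2 change of RPM + 1, HO-1 knockout over WT, of 7 member arms above the dotted line and 5 relatives below it. Filled points are the limma estimates on the deposited scale with 95% intervals and open diamonds the estimates with TMM scaling. The called rows shown are miR-16-5p, at -0.76 and -0.54, and the relatives miR-15a-5p and miR-322-5p. miR-503-5p, at -0.74 on the deposited scale, was not called, and miR-195-3p changes sign with TMM scaling.

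Likeness of pattern was measured by Pearson's r of log2(RPM + 1) over the 6 libraries, against the 212 rows of at least 10 RPM that are not members. These values describe 6 libraries in 2 genotypes that share their totals, and 42 rows had an r above 0.9 with miR-16-5p. The closest to miR-16-5p were miR-20a-5p, of the miR-17-92 cluster (r = 0.993), miR-145-5p, a smooth muscle miRNA (r = 0.989), and miR-31a-5p (r = 0.982). miR-20a-5p averaged 327 ± 56 RPM in the knockout and 647 ± 17 RPM in the WT (SD, n = 3 each). With TMM scaling the r of the 3 rows with miR-16-5p was 0.990, 0.981 and 0.954. By ranks of the libraries (Spearman's rho, without TMM scaling) the likeness was 0.77, 0.77 and 0.89. miR-20a-5p and miR-145-5p followed the order of miR-16-5p among knockout libraries. Among WT libraries both were highest in library 3, where miR-16-5p was lowest, and lowest in library 2, where it was highest. A high r here thus reflects the gap between genotypes more than the order of libraries within the WT.

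For the other guides, 50 rows had an r above 0.9 with miR-195-5p, 46 with miR-15b-5p and 19 with miR-497-5p, so the leading 3 stand among many, and whether the guides differ in this was not tested. miR-195-5p was closest to let-7g-5p (r = 0.994), miR-10a-3p (r = 0.981) and miR-192-3p (r = 0.973), which with TMM scaling had an r of 0.866, 0.824 and 0.546. miR-15b-5p was closest to miR-374-5p (r = 0.991), miR-27b-3p (r = 0.981) and miR-150-5p (r = 0.980), which with TMM scaling had an r of 0.409, 0.896 and 0.738. miR-497-5p was closest to miR-425-3p (r = 0.981), miR-802-3p (r = 0.969) and miR-676 (r = 0.966), with 0.889, 0.889 and 0.899 under TMM scaling. By r with TMM scaling, miR-192-3p took place 53 for miR-195-5p, and miR-374-5p and miR-150-5p places 87 and 34 for miR-15b-5p.

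Markers of several cell types moved with genotype beside these values. The smooth muscle and fibroblast list summed to 6895 to 9094 RPM in the knockout and 12086 to 19225 RPM in the WT. In limma's test 4 of its 8 rows were called lower. Its median log2 change was -0.9975, and -0.7737 with TMM scaling. The endothelial list summed to 19147 to 21287 RPM in the knockout and 25222 to 26982 RPM in the WT. In limma's test 2 of its 2 rows were called lower, and 1 in edgeR's. Both are arms of the same precursor, miR-126a, and so are not independent markers. For comparison, limma's test called lower 5.61% of all tested rows, and 26 of the 218 rows with a mean of at least 10 RPM. The endothelial median log2 change was -0.58, and -0.36 with TMM scaling. The red blood cell list, of interest because red cells hold much miR-16, summed to 377 to 459 RPM in the knockout and 468 to 580 RPM in the WT, with 0 of 5 rows called in limma's test (0 at an unadjusted p under 0.05, and 0 in edgeR). Its median log2 change was -0.20, and 0.02 with TMM scaling. Its most abundant row, miR-451-5p, lay at 157 to 210 RPM in the knockout and 224 to 289 RPM in the WT. The leukocyte list overlapped, at 820 to 935 RPM in the knockout and 764 to 882 RPM in the WT. In limma's test 0 of its 6 rows were called, and 1 in edgeR's, and 3 had a log2 change below 0. The most abundant of them, miR-142-3p, did not overlap, at 368 to 390 RPM in the knockout and 260 to 306 RPM in the WT. Its log2 change was 0.42 (limma adjusted p = 0.062). The part of these cell types in the level of miR-16-5p was not tested, and in bulk RNA fewer cells of a type and less RNA per cell cannot be told apart.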

How the data were processed

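The authors deposited RPM of 764 rat miRNA entries in 6 libraries, rounded to 2 decimals, with their mean RPM of each genotype, log2 fold change and p-value, per the file headers; no source used here gives the test behind that p-value. Each library took 1 μg of total RNA through a ligation-based kit and was read for 50 bp from 1 end, per the labels' protocols. Per the submitters' processing notes, FastQC, BWA, edgeR and the build rn6 were used, in roles and versions that are not stated. All 6 library columns were matched to samples by name.

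For the 570 rows above 0 in at least 1 library, log2(RPM + 1) was modelled on genotype alone in limma 3.58.1 (R 4.3.3, trend on), adjusted by Benjamini-Hochberg at 0.05. Arm ratios were fitted likewise over 94 precursors, and both fits were tested on simulated data. Whole reads were recovered from the RPM steps: 97.8% to 98.9% of values above 0 lay within 0.0051 RPM of a whole number, against 8.5% to 10.2% by chance. The step of WT library 1, 0.0996 RPM, is so close to 0.1 that its total rests on the higher values. 3 reads equal 0.299 to 0.361 RPM. edgeR 4.0.16 and DESeq2 1.42.0 were run on these reads as alternatives. Ratios and shares between guide arms, and their sum, were compared by exact permutation (SciPy 1.17.1).

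The labels do not say that libraries came from separate animals, so p-values speak only of the spread among these libraries, which may be technical. The members, marker lists and tests were chosen with earlier results of these data known. Named miRNAs are the members, the other rows of the family and miR-503, the 3 rows most alike each guide, and the most abundant row of some marker lists.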

Additional observations from a re-analysis of the deposited data

How the results depend on the processing

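miR-16-5p was the 1 member called in all 10 alternatives that kept the 6 libraries (TMM, RLE and upper-quartile scaling, totals without miR-122-5p, both pseudocounts, the minimum of 10 RPM, the replicate block, edgeR and DESeq2), with a log2 change of -0.76 to -0.52 and an adjusted p of 0.0015 to 0.046. With 1 library left out, the count of called members ranged between 0 and 1. The count of member arm ratios called as changed was 0 in every alternative but the pseudocount of 5, where it was 1. Equal replicate numbers were not taken to pair the libraries, since the labels give no pairing and not every same-numbered pair passed a correlation of 0.1: deviations correlated at 0.03, 0.18 and 0.20 over 218 rows, against -0.29 to 0.06 for libraries with different numbers, and knockout and WT library 1 did not correlate best with each other. With the replicate number as a block, miR-16-5p stayed at -0.76 on the log2 scale with a limma adjusted p of 0.046, and neither miR-15a-5p (limma adjusted p = 0.076) nor miR-322-5p (0.068) passed. miR-195-3p was higher in the knockout with TMM (0.21), RLE (0.23) and upper-quartile scaling (0.21), without miR-122-5p in the totals (0.19), in edgeR (0.22) and in DESeq2 (0.24), and its log2 change lay between -0.088 and 0.081 with 1 library left out. The log2 difference of the miR-15b-5p to miR-497-5p ratio then lay between -0.10 and 0.056, and that of miR-195-5p to miR-497-5p between -0.077 and 0.18, so neither has a settled direction. The miR-16-5p to miR-195-5p difference stayed between -0.52 and -0.42 and that to miR-15b-5p between -0.48 and -0.31. Over all tested rows the calls numbered 36, against 22 with the block, 72 in DESeq2, 61 in edgeR and 5 to 26 with 1 library left out, and arm ratio calls 29 of 94, against 15 of 197 with no minimum and 14 to 30 with 1 library left out. Depth limits miR-497-3p, miR-15a-3p and miR-16-3p.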
